A study of Rattus norvegicus with 48 samples.

Results

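The 9 names followed here were the mature miRNAs miR-127-3p, miR-434-3p, miR-434-5p, miR-433-3p, miR-431, miR-136-5p and miR-136-3p and the precursors mir-127 and mir-337. The rule took them by name, as miRNAs of the imprinted cluster on rat chromosome 6 that is transcribed antisense to the gene Rtl1, and it was made with earlier results of these data known. They, 7 mature and 2 precursor, belong to 6 hairpins and were among 1063 names measured (612 mature and 451 precursor). Every one of the 9 was above 0 in all 48 libraries and none was lost to the filter on low values.

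Small RNAs were sequenced from pools of amygdala and of ventral striatum RNA of Long Evans rats on postnatal day 42, and every pool combined RNA of 3 rats of the same sex. The dams had received ethanol or saline by intraperitoneal injection on gestational day 12, and after weaning on postnatal day 21 the offspring were housed either with littermates (non-enriched) or with rats of an untreated dam (socially enriched). All dams were thus injected, all offspring had passed a social behavior test and were anesthetized with ketamine and xylazine before their brains were taken, and both regions came from the same animals. Each of the 4 treatment groups had 6 libraries in each region, with 3 female pools, called F1 to F3, and 3 male pools, M1 to M3. The controls were injected with saline, no other agent is given for them, and a pool gives the average of its 3 rats, so that differences between single rats or litters cannot be seen. The whole amygdala and the ventral striatum hold many cell types, and fewer cells of a type cannot be told apart from less RNA per cell. Nothing in the labels says that the pools of a group came from separate litters, and the p-values measure the spread between pools.

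The Dlk1-Dio3 domain is imprinted: protein-coding genes such as Dlk1 and Rtl1 are expressed from the paternal chromosome, and the noncoding RNAs, among them a large number of miRNAs, from the maternal one. Rtl1 derives from a retrotransposon and is best known from the placenta. The maternal transcript that runs antisense to Rtl1 carries several miRNA hairpins, and because it is copied from the opposite strand, their mature miRNAs pair perfectly with the Rtl1 mRNA and can direct its cleavage, while the same miRNAs are abundant in brain.

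The mature sequences were taken from RefSeq (build GRCr8) and are shown to identify the members and the short stretch, the seed at bases 2 to 8, that pairs with targets. Capitals mark the seed. All were on the plus strand of chromosome 6.

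miR-127-3p: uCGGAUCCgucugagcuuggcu

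miR-434-3p: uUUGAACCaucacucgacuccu

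miR-434-5p: aGCUCGACucaugguuugaacca

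miR-433-3p: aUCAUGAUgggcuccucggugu

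miR-431: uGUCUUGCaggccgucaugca

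miR-136-3p: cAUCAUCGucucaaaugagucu

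None of these 6 seeds was held by another of the 564 mature names with a RefSeq sequence, so each of these members had a seed of its own. These sequences were 21 to 23 bases long. Levels are given as normalized values (RPM, reads scaled to 1000000), and since ligation and amplification of small RNAs depend on their sequence, the order of levels between names is an order of reads and not of molecules. In GRCr8 the hairpins follow each other in the order Mir337 (chr6:134321142-134321238), Mir431 (chr6:134326449-134326562), Mir433 (chr6:134327358-134327450), Mir127 (chr6:134328454-134328550), Mir434 (chr6:134330402-134330482) and Mir136 (chr6:134331335-134331416). The RefSeq annotation places 5 of these 6 hairpins inside Rtl1. Mir337 lies next to the gene but outside its annotated bounds, so for mir-337 the name "antisense to Rtl1" did not hold in this annotation.

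A further pair of hairpins is annotated on the minus strand of the same stretches, and they bear on how 2 members can be read. The hairpin mir-3544 overlaps mir-337 over 85 bases and is its reverse complement there, and miR-3543 overlaps miR-434-3p over 22 bases in the same way. The 5p and 3p miRNAs of mir-337 and these minus-strand miRNAs are shown for that reason, again with the seed in capitals.

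miR-337-5p: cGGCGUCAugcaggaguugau

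miR-337-3p: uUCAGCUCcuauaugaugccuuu

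miR-3544: aACUCCUGcaugacgccguuccc

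miR-3543: cAGGAGUCgagugaugguucaaa

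In the table, mir-337 was a fixed share of mir-3544. It stood at 0.847% of mir-3544 in each of the 48 libraries, with a range from 0.846894% to 0.846948%. In reads mir-337 amounted to 0.806 to 5.05 per library with a median of 2.93, as a fixed fraction and not as a count of its own. The values of mir-337 below are therefore those of mir-3544 on a smaller scale, and the reads of the 2 strands could not be told apart in them; mir-3544 and miR-3543 were singled out after their values had been seen. Mature reads of the mir-337 hairpin were present in larger numbers, with miR-337-5p and miR-337-3p summing to between 91.6 and 264 RPM (median 181). The mature miR-3544 of the minus strand stood at 0 to 15.6 RPM (median 2.10). In the same way miR-3543 was 11.3% to 11.9% of miR-434-3p in every library, so part of the reads of that stretch was listed under the minus-strand name.

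**Figure D1:**
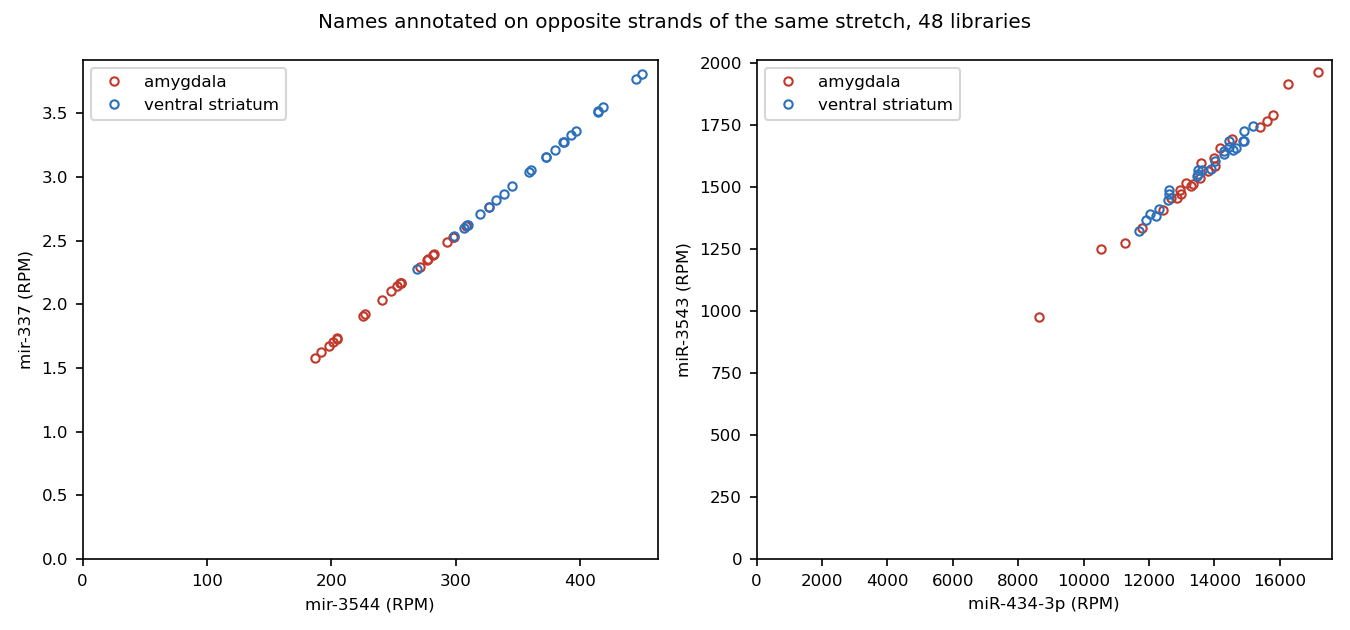
RPM of mir-337 against mir-3544 (left) and of miR-3543 against miR-434-3p (right), 1 point per library, amygdala in red and ventral striatum in blue, both axes linear from 0. The points lie on a line through 0 in both plots, with mir-337 at 0.847% of mir-3544 and miR-3543 at 11.3% to 11.9% of miR-434-3p.

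The 2 names of mir-127 also count the same reads. miR-127-3p was 1.14 to 1.18 times mir-127 in every library, as mature and precursor values are scaled to 1000000 each, and the pair is 1 measurement and not 2. For mir-431 the opposite held, with miR-431 at 16.4% to 39.2% (median 25.4%) of its precursor mir-431, which also holds reads from elsewhere on the hairpin. Both arms of mir-434 were listed on 2 lines each, for the copies mir-434-1 and mir-434-2, and were summed here.

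Libraries held a median of 855220 mature reads in amygdala and 1031170 in ventral striatum, and the smallest, from amygdala, held 363141. One read was worth 0.730 to 2.75 RPM, which is small beside every mature member. The brain markers miR-124-3p, miR-9a-5p, miR-128-3p and miR-138-5p were present in all libraries, summing to 27585 to 54641 RPM. The choroid plexus names (4 of 5 found, none of these at 0 throughout) summed to 3423 to 131289 RPM in amygdala (median 14663) against 4353 to 7527 RPM in ventral striatum (median 6195). The 2 highest libraries, F2 and M3 of the ethanol-exposed non-enriched amygdala group, stood at 131289 and 116544 RPM. The region differences of the called members, the arm ratios that passed and the treatment contrasts of that group are also given without them. So are the named interactions that use that group. Ciliated cell names (3 of 3 found) also reached higher sums in amygdala, 152 to 13888 RPM against 152 to 5573 RPM. Which library belonged to which of the 6 sequencing sets is not given in the sources used here, so no values within sets could be formed.

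miR-127-3p was among the most abundant miRNAs of both regions. It made up 9.99% of mature RPM in the lowest library, 13.997% in the median and 20.04% in the highest, and held rank 1 of all mature names in 12 libraries, rank 2 in 34 and rank 3 in 2. The name ahead of it was usually miR-181a-5p, another abundant brain miRNA, which held rank 1 in 36 libraries. Together the 7 mature members took 11.6% to 23.2% of mature RPM (median 16.6%), of which miR-127-3p alone was 79.95% to 87.6%.

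In amygdala miR-127-3p ranged from 99945 to 200360 RPM with a median of 137448, and in ventral striatum from 104809 to 189018 with a median of 148011. miR-434-3p ranged from 8630.3 to 17166 RPM (median 13459) in amygdala and from 11697 to 15184 (median 13757) in ventral striatum. These ranges overlapped almost wholly, for the most abundant member and for the next.

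Its partner miR-434-5p, from the other arm of the hairpin, was lower, at 1636 to 2948 RPM in amygdala (median 2219.8) and 1949 to 2946 RPM in ventral striatum (median 2217). The 3p arm was the larger one for mir-136 as well. miR-136-3p stood at 4621 to 10419 RPM in amygdala (median 7146) and 6730.1 to 10931 RPM in ventral striatum (median 9128). miR-136-5p stood at 1008 to 1965 RPM in amygdala (median 1346) and 1166 to 1972 RPM in ventral striatum (median 1453). The median of the 3p arm was the lower one in amygdala by the wider margin.

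miR-433-3p ranged from 324 to 728 RPM (median 468) in amygdala and from 322 to 724 RPM (median 535) in ventral striatum. The least abundant mature member was miR-431, known for promoting axon regeneration of sensory neurons, with 82.6 to 270 RPM (median 173) in amygdala and 157 to 315 RPM (median 214) in ventral striatum. The precursor mir-337 was listed at 1.58 to 2.76 RPM in amygdala (median 2.17) and at 2.28 to 3.81 RPM in ventral striatum (median 3.10), with the limit given above. Of all members its groups overlapped least: each of the 24 amygdala libraries lay below the median of ventral striatum, and 14 lay below every ventral striatum library.

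The order of the mature members was the same in all 48 libraries: miR-127-3p, miR-434-3p, miR-136-3p, miR-434-5p, miR-136-5p, miR-433-3p and miR-431. The largest step was the first, with miR-127-3p a median of 10.8 times miR-434-3p. Neighbours that stood closest were miR-434-5p and miR-136-5p, at a median ratio of 1.61, and miR-434-3p and miR-136-3p, at 1.70, and the ranges of both pairs overlapped across libraries although the order within a library did not turn. The coefficient of variation of miR-434-3p was 13.8% in amygdala and 8.09% in ventral striatum, and that of miR-431 was 24.9% and 18.8%.

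**Figure D2:**
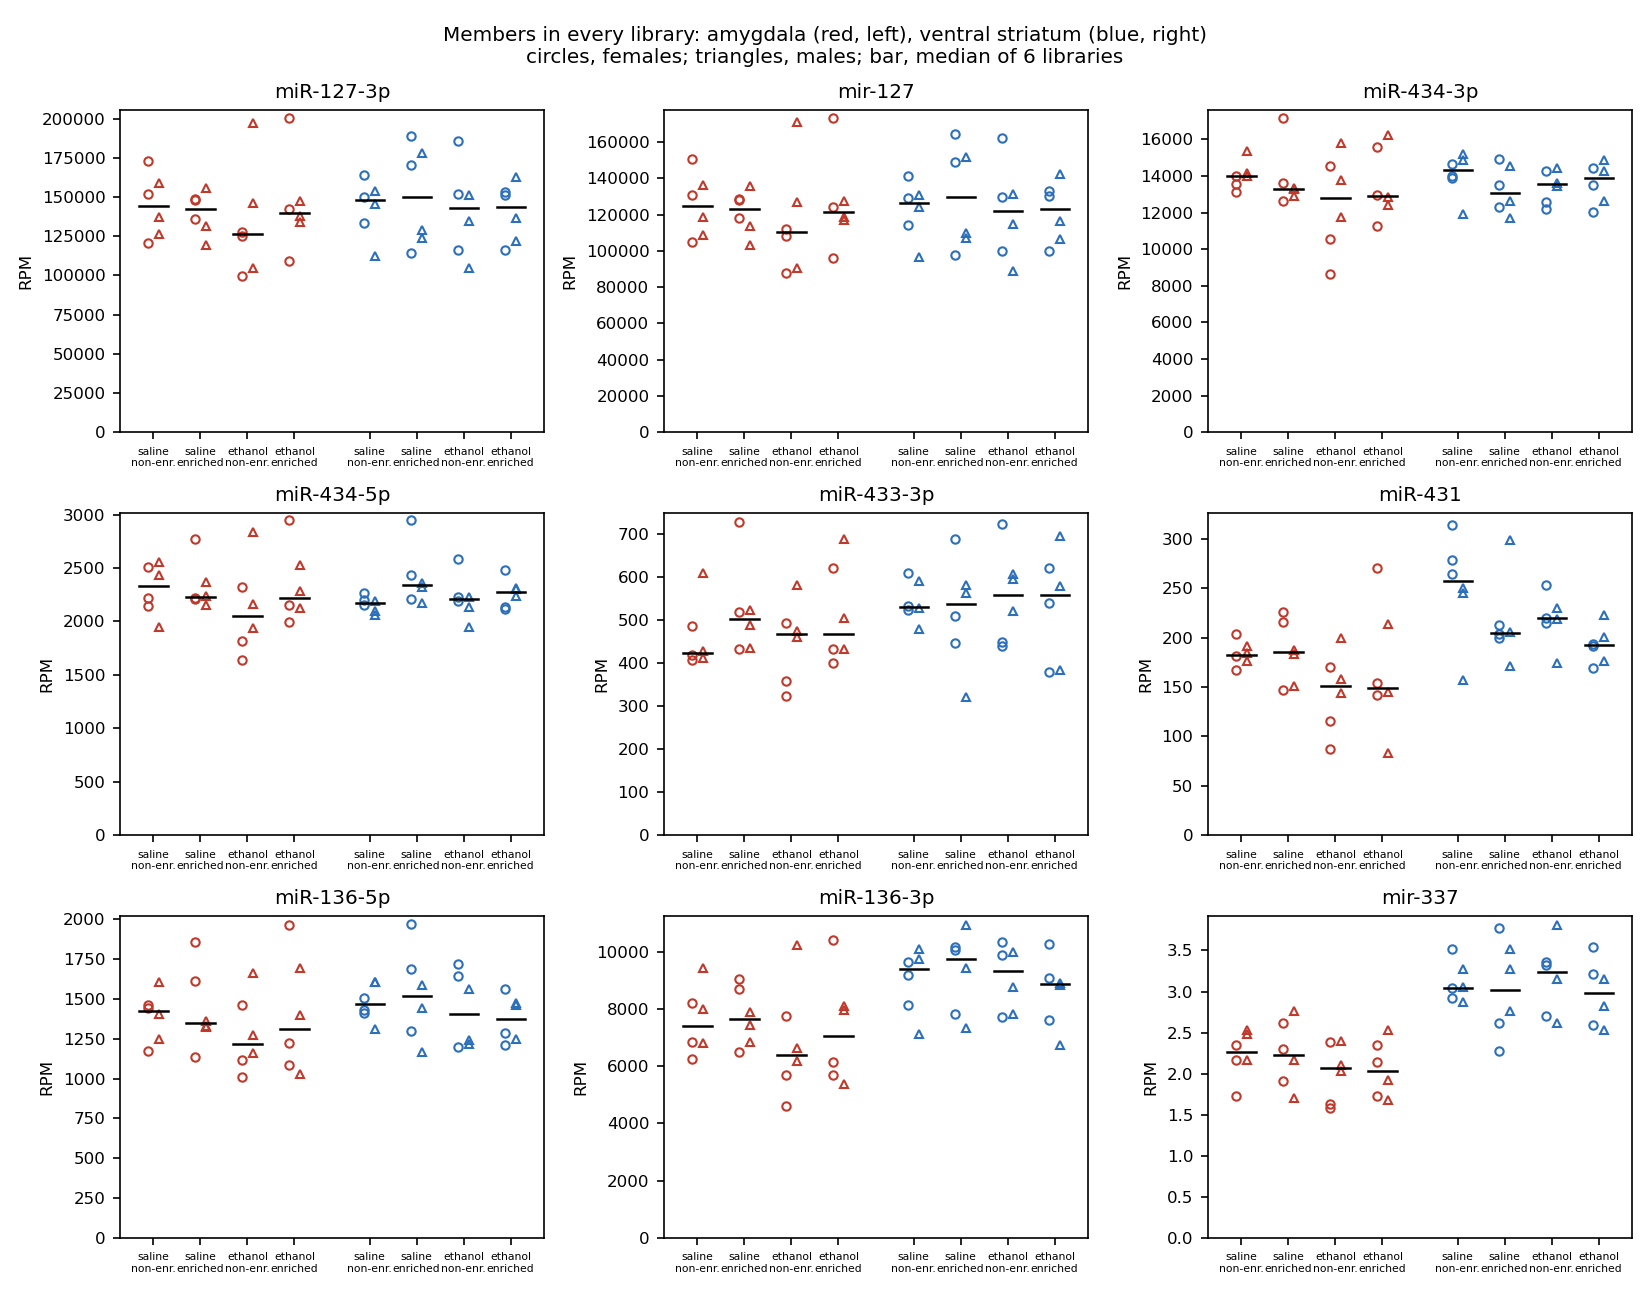
RPM of the 9 members in every library (circles females, triangles males), by treatment group, amygdala in red on the left and ventral striatum in blue on the right of each panel, with a bar at the median of 6 libraries and linear axes from 0. miR-431, miR-136-3p and mir-337 sit lower in amygdala (medians 173, 7146 and 2.17 RPM) than in ventral striatum (214, 9128 and 3.10 RPM), and the treatment groups of a region overlap for every member.

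Between the regions, 3 of the 9 members differed, all lower in amygdala: miR-431, miR-136-3p and mir-337. The abundant miR-127-3p and both arms of miR-434 differed between the regions by less than their error. The comparison was fitted with limma on log2(RPM + 1) in all 48 libraries and adjusted over 915 names, of which 30.3% passed an adjusted p of 0.05 (8.74% higher and 21.5% lower in amygdala). A share of 3 in 9 is thus near that of all names.

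miR-431 averaged 171 ± 42.5 RPM in amygdala and 220 ± 41.2 RPM in ventral striatum (SD, n = 24 each). It was lower in amygdala by 0.39 on the log2 scale (SE 0.09, limma adjusted p = 0.00137), and 9 amygdala libraries lay below every ventral striatum library. miR-136-3p averaged 7366 ± 1509 RPM in amygdala and 8985 ± 1184 RPM in ventral striatum (SD, n = 24 each), a log2 difference of -0.30 (SE 0.08, limma adjusted p = 0.00327), and again 9 amygdala libraries lay below every ventral striatum library. For both members the ranges of the regions overlapped in the remaining libraries.

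mir-337 averaged 2.14 ± 0.343 RPM and 3.07 ± 0.407 RPM (SD, n = 24 each), a log2 difference of -0.38 (SE 0.05, limma adjusted p = 7.01e-07). The addition of 1 RPM before taking logs compresses this value, and mir-3544, whose reads it shares, differed by -0.53 (SE 0.07, limma adjusted p = 3.80e-07). Its own mature miRNAs differed in the same direction, miR-337-5p by -0.46 (SE 0.11, limma adjusted p = 0.00150) and miR-337-3p by -0.58 (SE 0.10, limma adjusted p = 2.48e-05). For miR-337-3p, 15 amygdala libraries lay below every ventral striatum library.

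The other members did not pass the test, and the 95% interval of each included 0. miR-127-3p differed by -0.03 on the log2 scale (95% interval -0.19 to 0.13, limma adjusted p = 0.817) and mir-127 by -0.02. miR-434-3p differed by -0.02 (95% interval -0.12 to 0.08, limma adjusted p = 0.798) and miR-434-5p by -0.00 (95% interval -0.10 to 0.09). The signs of these 4 turned to positive after median-ratio rescaling of the libraries (0.03 for miR-127-3p to 0.06 for miR-434-5p), so they had no direction. miR-433-3p differed by -0.15 (95% interval -0.33 to 0.03, limma adjusted p = 0.215) and miR-136-5p by -0.09 (95% interval -0.23 to 0.06, limma adjusted p = 0.398).

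The median log2 difference over all names tested was -0.08, and that of the members was -0.09. Without the 2 amygdala libraries rich in choroid plexus names, chosen after the values were seen, miR-431 differed by -0.37 (limma adjusted p = 0.00384), miR-136-3p by -0.26 (limma adjusted p = 0.0107) and mir-337 by -0.36 (limma adjusted p = 4.06e-06), and 26.8% of names passed. Oligodendrocyte names moved with the region as well: all 3 (miR-219a-5p, miR-219a-2-3p and miR-338-3p) were lower in amygdala, with sums of 4671 to 15452 RPM (median 7089) against 6218 to 15920.3 RPM (median 10324), and their part in the result was not tested.

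Of the other 9 names of the same hairpins, 5 (55.6%) were lower in amygdala and none higher, beside 21.5% of all names lower; these names share reads with members, as mir-136 does with miR-136-3p. Besides miR-337-5p and miR-337-3p these were miR-127-5p, the minor arm of mir-127 (-0.22, SE 0.06, limma adjusted p = 0.00517), miR-433-5p (-0.31, SE 0.11, limma adjusted p = 0.0274) and the precursor mir-136 (-0.24, SE 0.07, limma adjusted p = 0.0113). The precursors mir-431 (-0.23, limma adjusted p = 0.115), mir-433 (-0.14, limma adjusted p = 0.241), mir-434-1 (0.06, limma adjusted p = 0.485) and mir-434-2 (-0.11, limma adjusted p = 0.201) did not pass the test. For mir-431 the mature miRNA thus passed and its precursor, which holds more reads, did not.

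**Figure D3:**
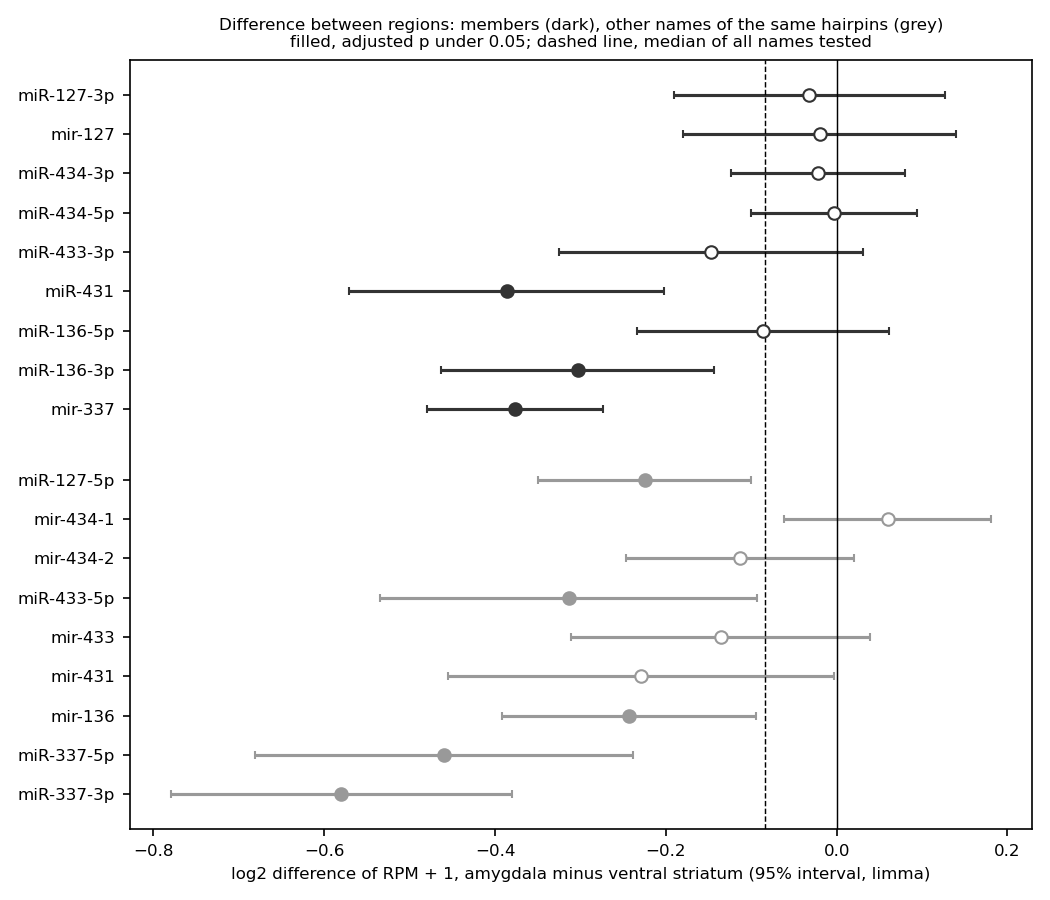
Log2 difference of RPM + 1, amygdala minus ventral striatum, with its 95% interval (limma, 24 libraries per region), for the members (dark) and the other names of their hairpins (grey); filled points have an adjusted p under 0.05 and the dashed line is the median of all names at -0.08. miR-431 (-0.39), miR-136-3p (-0.30) and mir-337 (-0.38) are filled, while the intervals of miR-127-3p and both arms of miR-434 include 0.

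Elsewhere in the Dlk1-Dio3 domain, 26 of the 109 names tested differed between the regions, 25 of them lower and 1 higher in amygdala, with a median over the 109 of -0.17. These 23.9% stood beside 30.3% of all names. Among the called names with a mean of at least 10 RPM, the largest differences were those of miR-543-3p (-0.73, SE 0.16, limma adjusted p = 0.000748) and mir-543 (-0.58, SE 0.09, limma adjusted p = 1.23e-05), both lower, while miR-496-3p was the 1 higher name (0.50, SE 0.16, limma adjusted p = 0.0160).

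The ratio of the 2 arms of a hairpin does not depend on how a library is scaled, and it was compared between regions for the 5 hairpins with both arms above 0 in all libraries. Of these 5, 2 differed. The 5p to 3p ratio of mir-136 was 0.162 to 0.242 (median 0.186) in amygdala and 0.124 to 0.197 (median 0.159) in ventral striatum. Every one of the 24 amygdala libraries lay above the median of ventral striatum. On the log2 scale the ratio was higher in amygdala by 0.22 (SE 0.04, permutation p = 2e-05, the smallest that 100000 resamples can give, adjusted p = 1e-04 over 5 hairpins). miR-136-3p thus differed between the regions by more than its partner miR-136-5p, and this is the test of that difference.

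For mir-127, whose 5p arm is rare, the ratio was 0.00158 to 0.00291 (median 0.00235) in amygdala and 0.00195 to 0.00402 (median 0.00269) in ventral striatum. It was lower in amygdala by 0.19 on the log2 scale (SE 0.07, permutation p = 0.00684, adjusted p = 0.0171), with 5 of 24 amygdala libraries above the median of ventral striatum. The arms of mir-127 and mir-136 thus differed in opposite directions: the minor arm was the relatively lower one in amygdala for mir-127 and the relatively higher one for mir-136.

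The other hairpins did not pass the test. The mir-433 ratio differed by -0.17 (SE 0.09, permutation adjusted p = 0.0866), and without M2 of the saline socially enriched amygdala group by -0.20 (permutation adjusted p = 0.0386). Exchanging regions only within libraries of consecutive numbers gave it a permutation adjusted p of 0.0349. The mir-337 ratio differed by 0.12 (SE 0.14, permutation adjusted p = 0.488). The mir-434 ratio differed by 0.02 (SE 0.04, permutation adjusted p = 0.630). The medians of mir-434 were 0.167 and 0.165, and those of mir-433 were 0.0914 and 0.0921. Without the 2 libraries rich in choroid plexus names the mir-136 and mir-127 ratios differed by 0.20 and -0.20 (permutation adjusted p = 0.000200 and 0.0165).

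**Figure D4:**
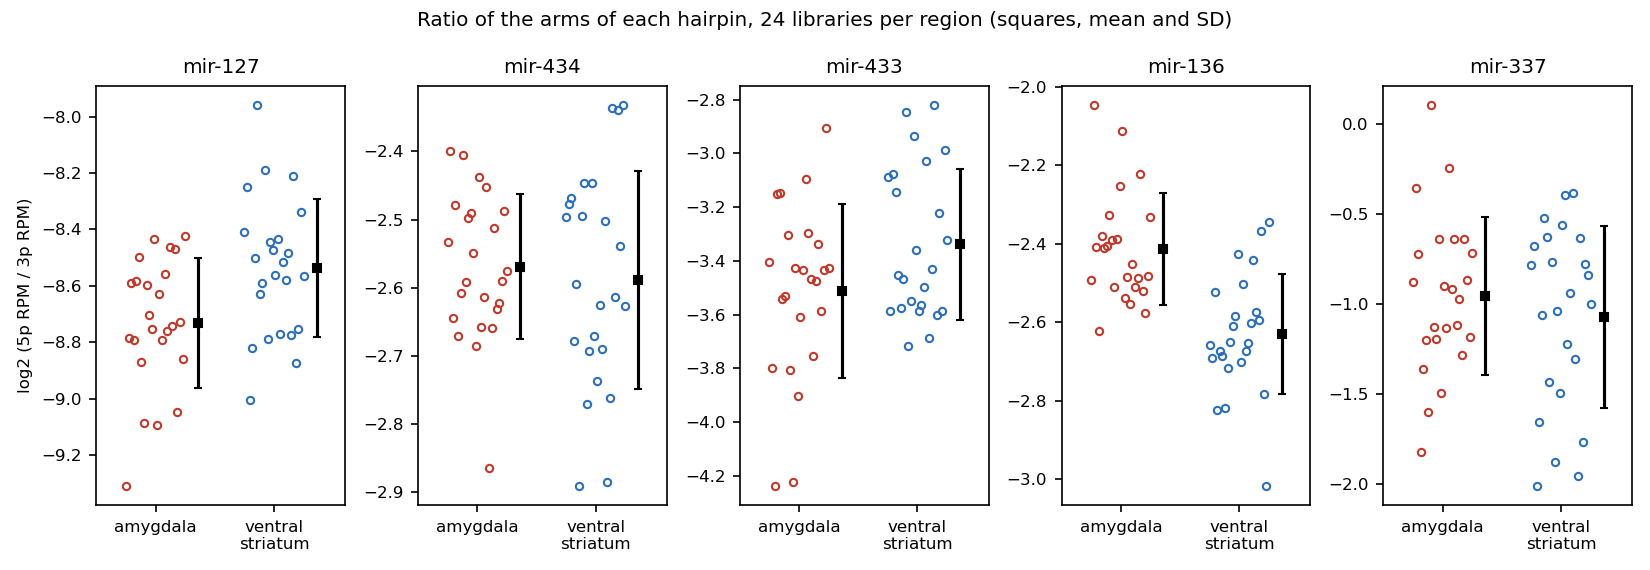
Log2 ratio of 5p to 3p RPM for 5 hairpins, 1 point per library, amygdala in red and ventral striatum in blue, with mean and SD of 24 libraries as squares and bars; the vertical axes do not start at 0 and differ between panels. The mir-136 ratio is higher in amygdala (means -2.41 against -2.63) and the mir-127 ratio lower (-8.73 against -8.54), while mir-434 is level (-2.57 against -2.59).

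Prenatal ethanol and social enrichment were compared within each region by 4 contrasts: ethanol against saline in non-enriched rats, N(EvC), and in enriched rats, S(EvC), and enriched against non-enriched housing in saline control rats, C(SvN), and in ethanol-exposed rats, E(SvN). No member passed an adjusted p of 0.05 in any of the 8 comparisons, where 0% of 910 names in amygdala and 0% of 933 in ventral striatum passed. At an unadjusted p under 0.05, limma gave 1 and the exact permutation test of mean RPM gave 2 of the 72 values, and the smallest exact p, 0.0195, came to 0.969 when adjusted over the 72. Of all names, limma gave p under 0.05 for 4.51%, 3.85%, 2.64% and 2.64% in amygdala and for 2.04%, 2.25%, 3.86% and 1.82% in ventral striatum, in the order N(EvC), S(EvC), C(SvN) and E(SvN). The log2 differences of the members ran from -0.38 to 0.19, with SEs of 0.06 to 0.22.

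The value under that level in limma was that of miR-434-5p in ventral striatum, in C(SvN), which was also one of the pair in the exact test; the other was miR-431 in amygdala, in N(EvC). It stood at 2056, 2174 and 2269 RPM (lowest, median, highest) in saline non-enriched and at 2170.4, 2341 and 2946 RPM in saline socially enriched libraries. Of the 6 enriched libraries, 4 lay above every non-enriched one. The log2 difference was 0.15 (SE 0.06, limma p = 0.0330, adjusted p = 1, exact permutation p = 0.0195), where 3.86% of all names had a p under 0.05. It fell to 0.09 (limma adjusted p = 1) without F3 of the enriched group, the library at 2946 RPM. Its partner miR-434-3p had the opposite sign there, with means of 13267 ± 1286 RPM in enriched and 14085 ± 1182 RPM in non-enriched libraries (SD, n = 6 each). The paper lists the increase of miR-434-5p as nominally significant by sequencing and by a microarray of the same pools, uncorrected for multiple testing. For the microarray the paper gives a larger fold change and a smaller p-value than for sequencing. The microarray data were not examined here.

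In the amygdala the ethanol difference of non-enriched rats was negative for all 9 members, from -0.38 to -0.05 with a median of -0.14. The largest was that of miR-431, which stood at 86.8, 151 and 200 RPM (lowest, median, highest) in ethanol-exposed and at 168, 183 and 204 RPM in saline libraries. Of the 6 ethanol-exposed libraries, 4 lay below every saline library. The log2 difference of miR-431 was -0.38 (SE 0.22, limma p = 0.0982, adjusted p = 0.842, exact permutation p = 0.0455).

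The 2 libraries rich in choroid plexus names belong to this ethanol-exposed group. Choroid plexus names summed to 3847 to 131289 RPM in it (median 30308) and to 3423 to 34798 RPM in the saline group (median 8160). F2 of the ethanol-exposed group held the lowest value of its group for miR-127-3p (99945 RPM), miR-434-3p (8630.3 RPM), miR-434-5p (1636 RPM), miR-136-3p (4621 RPM) and mir-337 (1.58 RPM). The lowest values of miR-431 (86.8 RPM), miR-433-3p (324 RPM) and miR-136-5p (1008 RPM) were in F1, which is not one of the 2 libraries. Without the 2 libraries, which leaves 4, 6 members were negative and 3 positive, the median was -0.02, and miR-431 differed by -0.32 (exact permutation p = 0.143). The common negative sign of the members was thus not kept without them, and all names tested had a median of -0.08 with and -0.04 without them.

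Enrichment in ethanol-exposed rats, E(SvN), gave positive values for all 9 members in amygdala, from 0.02 to 0.19. It shares the ethanol-exposed non-enriched libraries with the comparison above, so the opposite sign is not a second observation. The smallest p was that of miR-434-5p (limma adjusted p = 1). Without the 2 libraries 4 members were positive and 5 negative, and all names tested had a median of 0.04 with and 0.007 without them. In the other amygdala comparisons the members took both signs: in S(EvC) 3 were positive and 6 negative, with the smallest p for miR-431, and in C(SvN) 4 were positive and 5 negative, with the smallest p for miR-433-3p, and the limma adjusted p was 1 for both.

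In ventral striatum the members took both signs in every contrast. N(EvC) ran from -0.18 to 0.03 and S(EvC) from -0.15 to 0.04, with the smallest p for miR-431 and for miR-434-5p (limma adjusted p = 1 for both). C(SvN) ran from -0.22 to 0.15 and E(SvN) from -0.18 to 0.03, the latter with the smallest p for miR-431 (limma adjusted p = 1). miR-127-3p had group medians between 143020 and 149858 RPM in ventral striatum and between 126504 and 144491 RPM in amygdala.

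**Figure D5:**
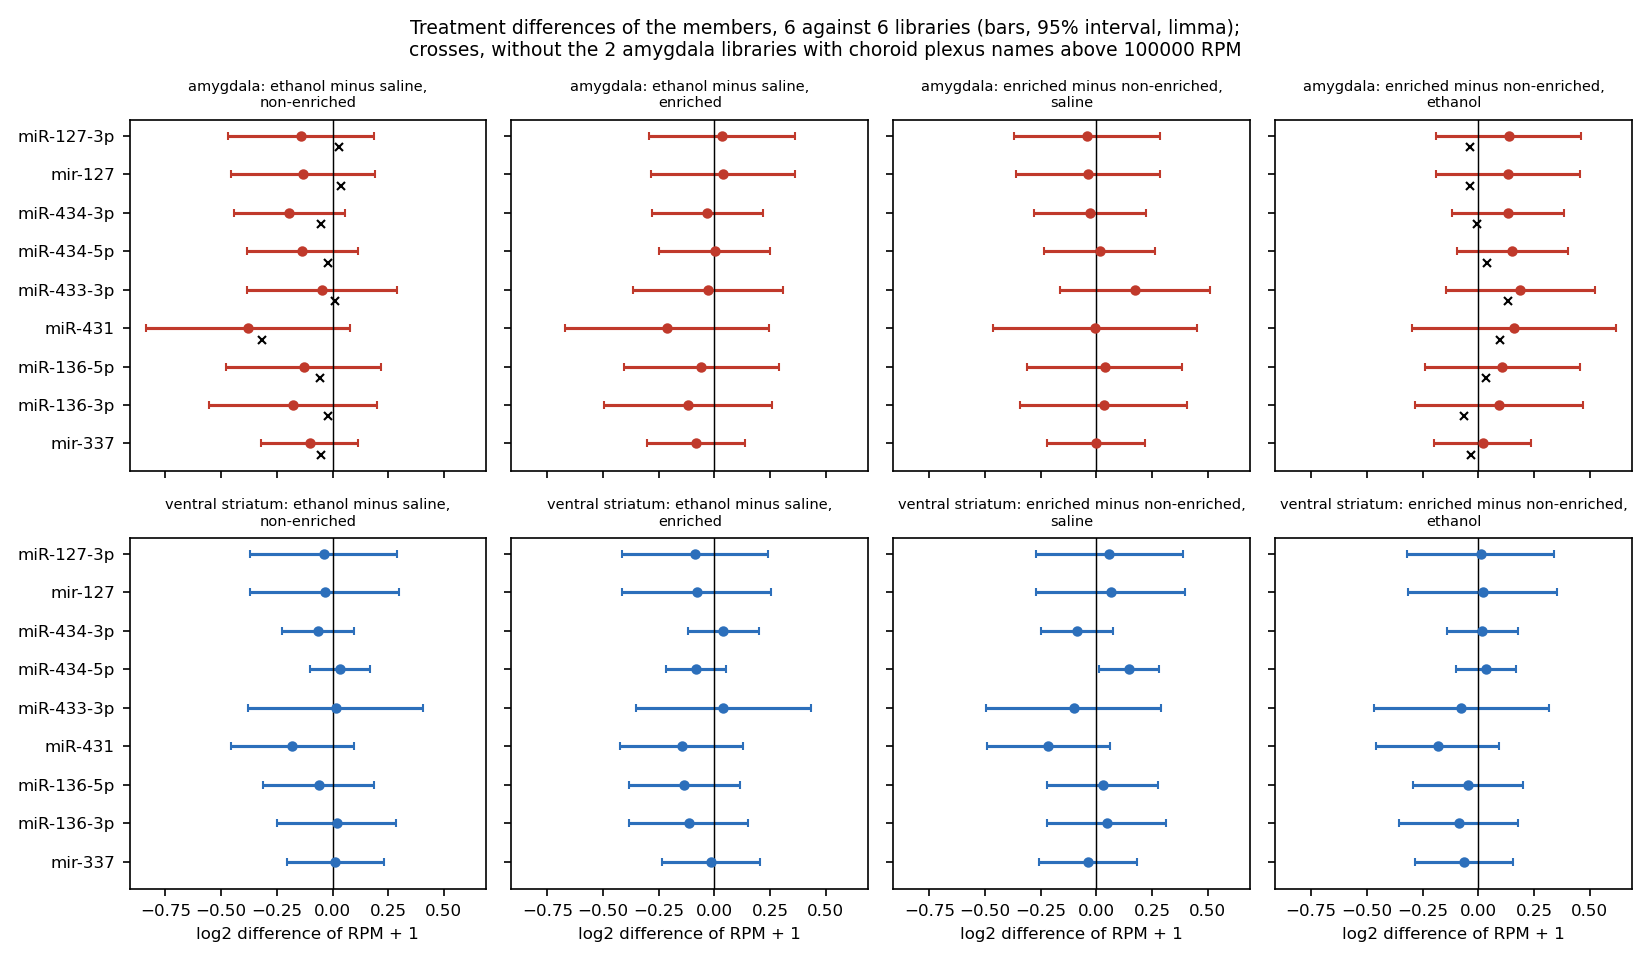
Log2 differences of RPM + 1 of the 9 members in 4 treatment contrasts, amygdala above in red and ventral striatum below in blue (points, with 95% intervals from limma, 6 against 6 libraries); crosses show the values without the 2 amygdala libraries with choroid plexus names above 100000 RPM. All intervals except that of miR-434-5p in ventral striatum (enriched minus non-enriched, saline) include 0, and in the amygdala contrasts with ethanol-exposed non-enriched rats the crosses lie nearer 0 than the points for most members.

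No difference of differences passed either. The ethanol by enrichment interaction had its smallest p for miR-434-3p in amygdala (0.16 on the log2 scale, limma adjusted p = 1) and for miR-434-5p in ventral striatum (-0.12, limma adjusted p = 1). The ethanol effect did not differ detectably between the regions for any member (smallest p for miR-434-3p, limma adjusted p = 1, with 0.219% of all names called), nor did the enrichment effect (smallest p for miR-433-3p, 0.27 on the log2 scale, limma adjusted p = 1). Between the sexes the members differed by -0.06 to 0.06 on the log2 scale, with the smallest p for miR-434-3p (limma adjusted p = 1). For sex all 95% intervals lay within -0.24 and 0.24. Without the 2 libraries rich in choroid plexus names, the ethanol by enrichment value of miR-434-3p in amygdala came to 0.02. The ethanol by region value of miR-434-3p then went from -0.10 to -0.03, and the enrichment by region value of miR-433-3p from 0.27 to 0.24. In the contrasts of this paragraph other than the ethanol effect by region, 0% of all names were called.

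After the 16 group means of region, treatment and sex were removed, most pairs of members still varied together from library to library. Of the 35 pairs other than miR-127-3p with mir-127, Pearson's r over 48 libraries had a median of 0.48 and ran from -0.17 to 0.83. miR-127-3p went with miR-136-3p at 0.75, with miR-136-5p at 0.70 and with miR-434-5p at 0.62, but with miR-434-3p at only 0.29. The 2 arms of mir-434 thus differed in how closely they followed the most abundant member. With mir-337 miR-127-3p stood at -0.14. After median-ratio rescaling these values of miR-127-3p were, in the same order, 0.72, 0.67, 0.62, 0.19 and -0.31. These values are descriptions, since the names share a library's depth and scaling.

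Outside the 6 hairpins, the names that followed miR-127-3p most closely among 560 names with at least 10 RPM in both regions were mir-341 (r = 0.83 over 48 libraries), mir-411 (0.80), miR-341 (0.79), miR-411-5p (0.78) and miR-380-3p (0.78). All 5 are names of the same Dlk1-Dio3 domain, in a background with a median r of -0.01. However, mir-341 and miR-341 are precursor and mature names of the same hairpin, as are mir-411 and miR-411-5p. The 5 names are thus not 5 separate hairpins. The list of other Dlk1-Dio3 names held 117 of all 1063 names, and its share of the 560 was not counted. After median-ratio rescaling 4 of the 5 remained among the top 5.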

How the data were processed

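Small RNA libraries of 48 pools (2 regions, 4 treatment groups, 2 sexes, 3 pools each) were analysed. The authors trimmed bases under a quality of 20, used Bowtie for alignment of the 37-cycle reads to Rn5, counted mature and precursor miRNAs of miRBase 21 in Partek Flow, and deposited a normalized signal (RPM, reads scaled to 1000000). The deposited table was checked: mature and precursor signal each add up to 1000000 per library, so both classes were tested within a name only. How reads matching several names were divided is not given in the sources used here. Since 92.1% to 99.5% of low mature and 83.3% to 89.5% of low precursor values were whole reads (within 0.02 of a read), no count test was used. One read was the smallest value shared by at least 5 names. Reads are PCR products, so depth covers counting error only.

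Lines sharing a name were summed. limma 3.58.1 (R 4.3.3; lmFit, contrasts.fit, eBayes with trend) was run on log2(RPM + 1), with differences on that scale, which understates low names. The regions, their interactions and sex were fitted in 48 libraries with 16 cells (names above 0 in at least 12), the treatments in the 24 libraries of a region with 8 cells (above 0 in at least 6). Tests were two-sided, with Benjamini-Hochberg adjustment over all names. Mean RPM of 6 against 6 libraries was compared by two-sided exact permutation (924 divisions, smallest p 0.00216), and arm ratios by two-sided permutation of 100000 resamples (Python 3.11.15, scipy 1.17.1). The members, marker lists and the list of other Dlk1-Dio3 miRNAs were chosen with earlier results of these data known. Named were all members, the other names of their hairpins, the largest called region differences of the Dlk1-Dio3 list among names with a mean of at least 10 RPM (up to 2 per direction), the 5 names most correlated with miR-127-3p and, in each treatment, interaction and sex contrast, members with p under 0.05 or else the smallest p.

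The alternatives tried included median-ratio rescaling, other pseudocounts (0.1 and 10), other filters (none, or 10 RPM on average), separate fits for mature and precursor names, unlogged values, replicate blocks, a fit to the 12 libraries compared, a pseudocount of 1 in the arm ratios, exact tests on log2 values, and each library left out. Leaving out the 2 libraries with choroid plexus names above 100000 RPM was chosen after the values were seen. Over 577 names, replicate numbers gave little pairing of libraries. Deviations of same-numbered libraries had a median correlation of -0.04 in amygdala and 0.02 in ventral striatum (36 pairs each). Between regions it was 0.05 (24 pairs, 11 above 0.1). Single members could differ from this. With replicate numbers as a block, the SE of the region difference was 0.054 against 0.078 without for miR-127-3p, and 0.096 against 0.088 for miR-433-3p. No 2 libraries were identical. The fit was tested on simulated data. With 200 of 915 names changed by 1 on the log2 scale it found 92% between the regions with 3 false calls. With 200 of 910 changed by 1 in amygdala N(EvC) it found 68.5% with 5 false calls. For a change of 2 these were 99.5% with 13 and 92% with 10 false calls. Changes as small as the differences of the members were not simulated. Sequences came from RefSeq (GRCr8), and no genome of Rn5 was used here.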

Additional observations from a re-analysis of the deposited data

Results flagged for a closer look

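In groups of 6 libraries, the gap of the highest or lowest library to the next was compared with the range of the group for the 9 members, 72 groups in all, and 5 exceeded the limit of Dixon's test. Chance flags about 1 in 20 groups.

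F2 of the saline socially enriched amygdala group was set apart for 3 members, with 17166 RPM of miR-434-3p against 13600.2 in the next library, 2772 RPM of miR-434-5p against 2366, and 728 RPM of miR-433-3p against 524. F3 of the saline socially enriched ventral striatum group was set apart with 2946 RPM of miR-434-5p against 2438. M1 of that ventral striatum group was set apart with 298.9 RPM of miR-431 against 213. In each case the library was the highest of its group.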

How the results depend on the processing

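The counts of members that passed an adjusted p of 0.05 were 3 between the regions and 0 in the 13 treatment, interaction and sex results, and these stayed within 1.5 times under every alternative run. Leaving out each library in turn gave 3 to 3 between the regions, 0 to 0 in each of those 13 results, and 2 to 3 hairpins with a different arm ratio. With the replicate number as a block the count between regions was 3, none was called in the 13 others, and 3 hairpins passed, mir-433 being added (permutation adjusted p = 0.0479 with replicate numbers and 0.0349 with consecutive library numbers as the replicate block). Both regions came from the same rats, but whether libraries of 1 number, or of consecutive numbers, hold the same rats is not given in the sources used here. With a mean of at least 10 RPM mir-337 was not tested, so the count between the regions fell, with only miR-431 and miR-136-3p called. The exact tests under 0.05 fell from 2 to 1 without the 2 libraries rich in choroid plexus names, which leaves 4 libraries in their group.

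Signs near 0 turned in the region difference. With median-ratio rescaling miR-127-3p came to 0.034, mir-127 to 0.056, miR-434-3p to 0.043 and miR-434-5p to 0.063. Without the 2 libraries they came to 0.011, 0.023, 0.013 and 0.026. On unlogged values miR-434-5p was higher in amygdala by 8.08 RPM. Leaving out 1 library moved mir-127 between -0.048 and 0.0096 and miR-434-5p between -0.024 and 0.012. The precursor mir-337, at 0.806 to 5.05 reads, was a fixed share of mir-3544 and not a count of its own. Pools of 3 rats limit what 6 libraries can show: the intervals of the treatment differences reached from -0.84 to 0.62.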
